A study of Saccharomyces cerevisiae with 4 samples.

Results

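Flocculins are the cell surface adhesins of budding yeast. The 7 genes described here are the flocculin genes FLO1, FLO5, FLO9, FLO10 and FLO11 and the flocculin regulators FLO8 and MSS11, all 7 of which had spots among the 5539 genes named on the arrays. They were found by gene symbol, older symbols included, and held 16 of the 12800 spots. FLO8 had 4 spots and every other gene had 2 neighbouring spots. The genes were picked out by name and not by a rule on their values, though with earlier results of these data known.

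The study set Saccharomyces cerevisiae cells treated with Congo red, a chitin-binding dye that disturbs wall assembly, against untreated cells of the same culture, on 4 arrays with 2 channels. Treated cells had 4 h in rich medium (YEPD) with 30 µg/ml Congo red, and untreated cells the same medium without the dye, both at 24 °C. All cells, treated and untreated, were BY4741 cells deleted for SLT2 (slt2Δ), which encodes the last kinase of the cell wall integrity cascade, so the arrays hold no comparison with cells that have the kinase. BY4741 is a haploid laboratory strain of mating type a that also carries deletions in HIS3, LEU2, MET17 and URA3. How much of each of these genes remains was not examined here. The labels leave unsaid whether the arrays represent separate cultures, so p-values measure the spread between arrays alone, and that may be technical.

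Flocculins reach out from the wall on a long stalk. FLO1, FLO5, FLO9 and FLO10 encode lectin-like proteins that bind mannose chains on neighbouring cells and make cells clump, and FLO1, FLO5 and FLO9 are closely similar in sequence. FLO11, also known as MUC1, is the adhesin of surface attachment, biofilms and filamentous growth. Its transcription, and that of FLO1, needs the activator Flo8, which acts with Mss11 below the cAMP-dependent protein kinase, PKA. Laboratory strains descended from S288C, BY4741 among them, carry a nonsense mutation in FLO8 and do not flocculate. The reference gene table (assembly R64) accordingly lists FLO8 (YER109C, chromosome V) as a pseudogene, and the other members as protein-coding genes. FLO1 (YAR050W) and FLO9 (YAL063C) lie on chromosome I, FLO5 (YHR211W) on VIII, FLO10 (YKR102W) on XI, FLO11 (YIR019C) on IX and MSS11 (YMR164C) on XIII. The genome build behind the array's design is unstated in the sources used here.

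Each value below is a log2 ratio of Congo red over untreated RNA on an array, after the array's median was subtracted and arrays 2 and 4, which had the treated RNA in the opposite channel, were multiplied by -1. A value of 1 is a doubling and 0 is the middle of the array. The direction is likely only. It takes channel 2 as the numerator, and if channel 1 was the numerator every sign turns together. Had the ratios been deposited as treated over untreated on all arrays, the turned means would measure channel order instead. Values left unturned are given with the processing alternatives. The values are ratios, so the level of a transcript in either channel was not analysed here. Usable ratios came from 84.1% to 90.9% of the spots of an array. The SLT2 spots, for a gene deleted in both channels, gave 1.48, -1.29, -1.51 and -1.14 on arrays 1 to 4. Of the other genes with deletions in the strain, HIS3 averaged 0.59 ± 1.07, LEU2 0.14 ± 0.17 and MET17 0.10 ± 0.17 (SD, n = 4). URA3 had 3.21 on array 2, -1.94 on array 3 and no other value. The signal behind these spots was not analysed.

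FLO9 was the one flocculin gene that lay below 0 on 4 of 4 arrays. FLO5, one of its close copies, lay just above 0 on all 4, and FLO11 was split between both sides. FLO8, averaged over its spots, and MSS11 were above 0 on 4 of 4 arrays. FLO10 was above 0 on the 3 arrays where it was measured. FLO1 had values on only 2 arrays, which lay on opposite sides of 0. No member passed over all genes in limma's test of the gene means. In that test 0% of 4481 genes passed an adjusted p of 0.05, and 1234 genes (27.5%) had an unadjusted p under 0.05. The smallest adjusted p of any gene was 0.0522 (limma), just over the threshold.

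FLO1, the founding flocculin, was hardly measured. Of its 8 possible spot values 2 were usable, both from spot 11618, with 0.56 on array 2 and -2.17 on array 4. Spot 11617 had no ratio on 3 arrays, and on array 2 it held the placeholder that the table uses where a ratio has no finite value. The 2 values have opposite signs, so no direction can be given for FLO1, and no test was made.

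FLO5 gave paired spot values of 0.39 and 0.35 on array 1, 0.06 and 0.12 on array 2, 0.03 and 0.06 on array 3, and 0.03 and 0.19 on array 4. The spots of a pair lay close together, and array 1 stood above the others. The mean was 0.15 ± 0.15 (SD, n = 4), 1.11-fold, with limma's 95% interval, not adjusted for the number of genes, from 0.888-fold to 1.39-fold (adjusted p = 0.456). The interval leaves room for a change of either sign, and 61.0% of the 4481 genes had a lower mean.

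FLO9 gave paired spot values of -0.92 and -0.92 on array 1, -0.49 and -0.45 on array 2, -1.05 and -1.10 on array 3, and -0.32 and -0.26 on array 4. All 8 spot values were below 0, and arrays 1 and 3 were lower than arrays 2 and 4. The mean was -0.69 ± 0.37 (SD, n = 4), 0.621-fold, with an interval from 0.448-fold to 0.861-fold (adjusted p = 0.105, limma). Only 8.32% of genes had a lower mean. The exact sign-flip permutation test over the 4 arrays gave p = 0.125 (two-sided), which is the smallest p that 4 arrays allow. As deposited, before centring and turning, the FLO9 pair read -0.48 and -0.49, 0.24 and 0.20, -0.75 and -0.80, and 0.96 and 0.90 on arrays 1 to 4.

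The FLO9 ratio differed in size between the channel orders, but the test of channel order did not call that difference. Its mean was -0.996 on the arrays with treated RNA in channel 2 and -0.38 on those with treated RNA in channel 1, so the sign held within each order. The channel coefficient, fitted as +1 for channel 2 and -1 for channel 1, was -0.31 (unadjusted p = 0.0806, adjusted p = 0.872, limma). No gene of the 4481 passed the test of channel order. For the other 4 members on all arrays the coefficient lay between -0.09 (FLO8) and 0.05 (FLO5), with unadjusted p from 0.717 to 0.953.

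A stricter analysis dropped a gene's average on an array if fewer than 2 of its spots were measured there. It also dropped the average if any measured spots of the gene lay over 1 log2 unit apart. This duplicate-spot analysis was chosen with its calls known, which its p-values ignore. It tested FLO5, FLO9 and MSS11, whose values were the same as above, and left out FLO1, FLO8, FLO10 and FLO11. FLO9 fell in it (adjusted p = 0.0296, limma), as did 11.5% of the 2804 genes tested, while 5.31% rose. FLO9 ranked 270 by p among these genes. FLO5 and MSS11 did not pass (adjusted p = 0.412 and 0.207). HIS3, LEU2 and MET17, which carry deletions in the strain, were also tested here and did not pass (adjusted p = 0.262, 0.470 and 0.615, limma). The filter thus also kept genes with deletions in the strain. The FLO9 call was lost when any array was left out, with means of -0.61, -0.76, -0.56 and -0.82 and adjusted p of 0.0795, 0.0525, 0.141 and 0.0744 without arrays 1, 2, 3 and 4. The count of genes called was 336 and 215 without arrays 1 and 2, and 0 without array 3 or array 4, against 472 with all arrays.

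**Figure D1:**
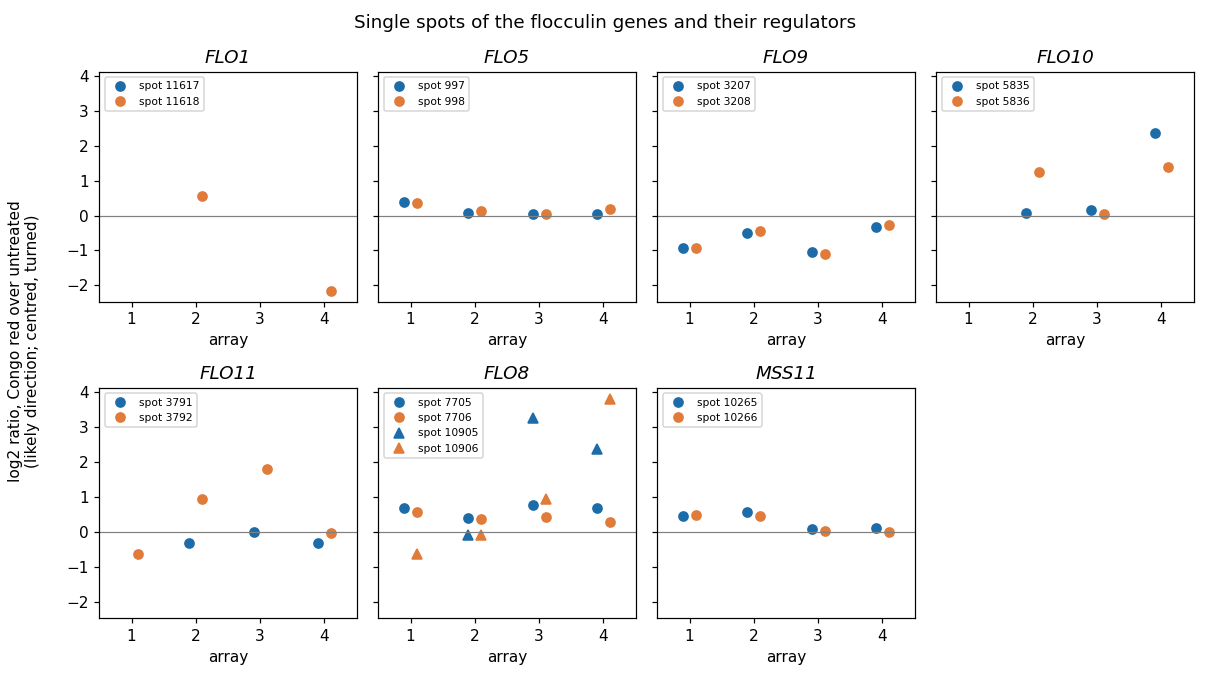
Log2 ratio of Congo red over untreated RNA (y axis, likely direction) of every spot of the 7 genes on arrays 1 to 4 (x axis), 1 point per spot and 1 panel per gene, with triangles for the second spot pair of FLO8. Both FLO9 spots lie below 0 on every array and both FLO5 spots lie just above it, while FLO11, FLO10 and the second FLO8 pair scatter within an array.

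FLO10 had no value on array 1. Its spots gave 0.08 and 1.23 on array 2, 0.15 and 0.04 on array 3, and 2.37 and 1.38 on array 4. All 6 values were above 0, and array 4 was far higher than array 3. The mean was 0.88 ± 0.91 (SD, n = 3), 1.83-fold, and among the 5171 genes with at least 3 arrays the 95% interval ran from -0.31 to 2.06 on the log2 scale (adjusted p = 0.266, limma). Without array 4 the mean of the remaining arrays was 0.38, so that array set much of the size.

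FLO11 had spots that disagreed. Spot 3791 gave no value on array 1 and -0.32, -0.01 and -0.32 on arrays 2, 3 and 4. Spot 3792 gave -0.65, 0.92, 1.81 and -0.04 on arrays 1 to 4. The spots lay 1.25 log2 units apart on array 2 and 1.82 on array 3, against a median gap between paired spots of 0.157 and 0.145 on those arrays over all genes. Averaged per array, FLO11 stood at -0.65, 0.30, 0.90 and -0.18, with a mean of 0.09 ± 0.66 (SD, n = 4) and an interval from 0.645-fold to 1.77-fold (adjusted p = 0.844, limma). Neither a rise nor a fall within that interval could be resolved for the main adhesin of filamentous growth. Its mean turned to -0.17 without array 3.

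FLO8, the activator that is broken in this strain background, had a mean of 0.87 ± 0.82 (SD, n = 4) over its 4 spots, 1.83-fold (adjusted p = 0.181, limma). Per array the averages were 0.21, 0.15, 1.35 and 1.78, and arrays 3 and 4 stood well above arrays 1 and 2. Of all genes, 90.6% had a lower mean. The mean hid a contrast between the spot pairs. Spots 7705 and 7706 gave 0.69 and 0.58 on array 1, 0.39 and 0.38 on array 2, 0.76 and 0.44 on array 3, and 0.67 and 0.29 on array 4. These 8 values are all above 0 and within a narrow range.

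The second FLO8 pair was erratic. Spot 10905 had no value on array 1 and gave -0.08, 3.25 and 2.36 on arrays 2, 3 and 4. Spot 10906 gave -0.62, -0.08, 0.95 and 3.81 on arrays 1 to 4. The paired spots lay 2.30 log2 units apart on array 3 and 1.45 on array 4. The reference table holds YER108C as an older name of FLO8, and which stretch of the gene either pair carries is unstated in the sources used here.

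With the pairs taken apart, a step added after the values had been seen, spots 7705 and 7706 averaged 0.52 ± 0.12 (SD, n = 4), 1.44-fold (adjusted p = 0.0874, limma, over 4499 pairs). With the duplicate-spot filter that pair rose (adjusted p = 0.0288, limma), as did 5.59% of the 2828 pairs tested, and 11.5% fell. The call was lost without array 1, 2, 3 or 4, with adjusted p of 0.0749, 0.0599, 0.125 and 0.0857 and means from 0.49 to 0.57. Spots 10905 and 10906 averaged 1.12 ± 1.76 (SD, n = 4; adjusted p = 0.339).

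MSS11, which encodes the partner of Flo8, gave spot values of 0.44 and 0.47 on array 1, 0.55 and 0.45 on array 2, 0.07 and 0.03 on array 3, and 0.10 and -0.000925 on array 4. The spots of each pair were close, and arrays 1 and 2 stood above arrays 3 and 4. That split crossed the channel order, with a mean of 0.26 on arrays with treated RNA in channel 2 and 0.28 on those with treated RNA in channel 1. The mean was 0.27 ± 0.25 (SD, n = 4), 1.20-fold, with an interval from 0.922-fold to 1.57-fold (adjusted p = 0.296, limma).

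**Figure D2:**
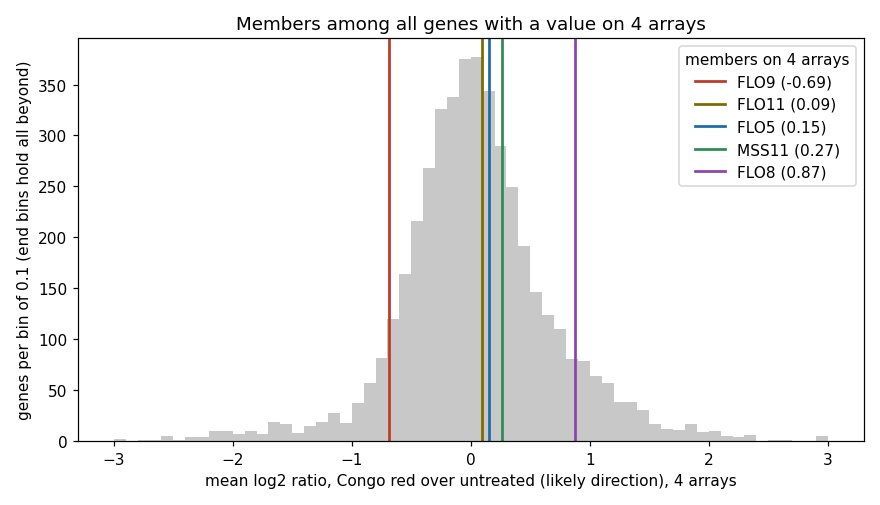
Mean log2 ratio of Congo red over untreated RNA over 4 arrays (x axis, likely direction) for the 4481 genes with a value on every array, as genes per bin (y axis), with lines at the 5 members among them. FLO9 (-0.69) lies toward the low end, FLO11, FLO5 and MSS11 near the middle, and FLO8 (0.87) toward the high end. The FLO8 line averages spot pairs that differed widely.

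The members with a value on every array can be set against one array-wide background. Of the 4481 genes, 20.4% were above 0 on 4 of 4 arrays and 21.3% below 0, together 41.7%. Of the 5 members measured on 4 arrays, FLO5, FLO8 and MSS11 were above 0 throughout and FLO9 below. For FLO8 that holds for the average of its spot pairs. The pair of spots 10905 and 10906 gave -0.62 and -0.08 on arrays 1 and 2. FLO10 and FLO1, measured on fewer arrays, are outside that count. The median of all gene means was 0.02, and a gene's SD over arrays had a median of 0.38. FLO5 and MSS11 varied less between arrays than that, FLO9 about as much, and FLO8 and FLO11 more.

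The clearest contrast between close copies was that of FLO5 and FLO9. FLO5 minus FLO9 was 1.29, 0.56, 1.12 and 0.40 on arrays 1 to 4, and on every array both FLO5 spots lay above both FLO9 spots. The mean difference was 0.84 ± 0.43 (SD, n = 4), a 1.79-fold gap between the ratios. A difference within an array does not depend on how that array was centred as a whole. The exact sign-flip permutation test gave p = 0.125 (two-sided, the smallest possible), and 0.438 after Benjamini-Hochberg adjustment over the 7 pairs of members that could be tested, so the design could not call any difference. The mean gap stayed above 0 when any array was left out (0.69 to 0.99). With runs of 400 spots centred it was smaller, 0.62 ± 0.17 (exact permutation p = 0.125). With values left unturned it was 0.36 ± 0.98 (exact permutation p = 0.5). The spotted sequences are unstated in the sources used here, and how far each spot also bound RNA of the other copies was not tested.

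FLO9 was also below FLO11 on 4 of 4 arrays (FLO9 minus FLO11, mean -0.78 ± 0.84, exact permutation p = 0.125), though the gap ranged from -1.97 on array 3 to -0.11 on array 4. With values left unturned that mean was -0.34 ± 1.17 (exact permutation p = 0.75), and with runs of 400 spots centred -0.61 ± 0.82 (exact permutation p = 0.25). FLO9 was below FLO10 on the 3 arrays they share (-1.13, -1.17 and -2.16 on arrays 2 to 4). With 3 arrays the exact permutation test cannot go below 0.25, the value it gave. FLO5 minus FLO10 was -0.57, -0.05 and -1.77 on the same arrays, again p = 0.25 by the exact test. FLO5 and FLO11 changed order between arrays (mean difference 0.06 ± 0.79, exact permutation p = 0.875), as did FLO10 and FLO11 (0.54 ± 1.43, n = 3, exact permutation p = 0.75).

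For FLO1 only 2 differences from each copy exist. FLO1 minus FLO5 was 0.47 on array 2 and -2.27 on array 4, and FLO1 minus FLO9 was 1.03 and -1.88, so the closest relatives could not be ordered against it. FLO8 minus MSS11 was -0.24, -0.35, 1.29 and 1.73 on arrays 1 to 4, with a mean of 0.61 ± 1.06 (exact permutation p = 0.5). The regulators changed order between arrays, FLO8 being lower on arrays 1 and 2 and higher on arrays 3 and 4.

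**Figure D3:**
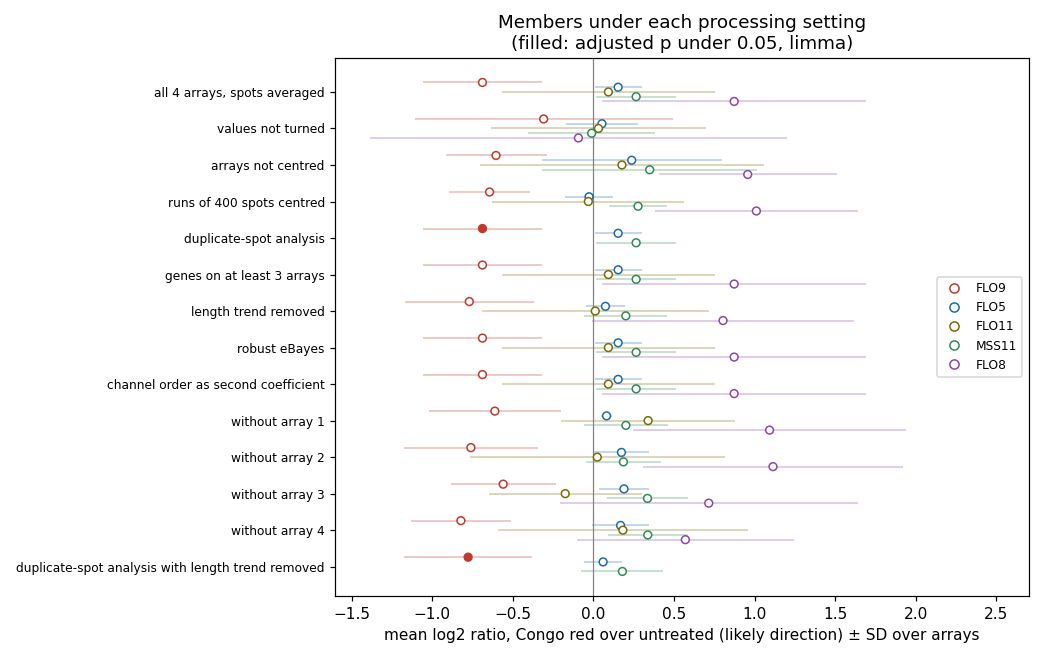
Mean log2 ratio ± SD over arrays (x axis, likely direction) of the 5 members measured on 4 arrays under each processing setting (y axis), filled where limma's adjusted p was under 0.05. FLO9 lies below 0 under every setting shown and is filled in the duplicate-spot analyses alone, while FLO5 and FLO11 stay near 0.

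Short reading frames similar to flocculins lie close to the full genes. Of the 4 listed, 3 had a value on all arrays, and their median was 0.14. YAR062W, beside FLO1, gave 0.52, 1.01, 0.74 and 0.33 on arrays 1 to 4 (mean 0.65 ± 0.29) and rose in the duplicate-spot analysis (adjusted p = 0.0274, limma), 1 of 2 fragments tested there against 5.31% of all genes. The reference table now holds YAR062W as an older name of the pseudogene YAR061W, whose own spots gave 0.28, 0.22, 0.29 and -0.25 and did not pass (adjusted p = 0.523 by the stricter test). YAL065C, near FLO9, stood at -0.27 ± 0.31 (SD, n = 4) in the analysis of all genes (adjusted p = 0.328). YHR213W, near FLO5, had -2.59 on array 1 and 1.74 on array 4 and no other value.

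The agglutinins, adhesins of mating cells, were set beside the flocculins. None of the 4 passed over all genes, and none of the 3 that met the duplicate-spot filter passed there. SAG1 did not meet that filter. SAG1, the agglutinin of the other mating type, gave -0.92, -1.32, -3.01 and -1.05 on arrays 1 to 4. AGA2, the binding subunit of the agglutinin of a cells, gave -1.73, -0.32, -1.38 and -0.14. Both lay below 0 on 4 of 4 arrays, with means of -1.58 ± 0.97 and -0.89 ± 0.78. BY4741 is of mating type a, so SAG1 is a gene of the other cell type. The signal behind its spots was not analysed. AGA1, the wall anchor of Aga2, and FIG2 had mixed signs. The median of the list, SAG1 included, was -0.69 against 0.02 for all genes. Of the 4 markers of a cells (STE2, MFA1, MFA2 and BAR1), STE2 and BAR1 had mixed signs. The a-factor genes MFA1 (-1.07 ± 0.92) and MFA2 (-1.10 ± 0.39) were below 0 on 4 of 4 arrays. Both fell in the duplicate-spot analysis (adjusted p = 0.0483 and 0.0111, limma), 2 of 4 such markers tested there against 11.5% of all genes. Of the 4 markers of alpha cells, SAG1 among them, STE3 was below 0 on 4 of 4 arrays (-1.71 ± 0.69, adjusted p = 0.0665 in limma, not passed). MF(ALPHA)1 was below 0 on its 3 arrays and MF(ALPHA)2 on its 2, with means of -1.09 and -1.07. These 4 are genes of the cell type that BY4741 is not, and the signal behind their spots was not analysed. The part of either marker list in the AGA2 and SAG1 values was not tested.

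The routes known to control flocculin genes were followed through 44 genes in 4 lists, 40 of which had a value on all arrays. Their median was 0.11, and none passed in the analysis of all genes. Of the 40, 12 were above 0 on 4 of 4 arrays, against 20.4% of all genes, and 7 were below, against 21.3%. With the duplicate-spot filter 4 of 26 rose (GPA2, SNF1, NRG2 and CYC8) and 1 fell (IRA2). That is 19.2%, near the 16.8% called over all genes.

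The cAMP and PKA branch, which phosphorylates Flo8 and relieves repression of FLO11, had a median of -0.05 over 13 genes, with means from -0.51 to 1.73. GPA2, the G protein subunit of glucose sensing, rose in the duplicate-spot analysis (0.52 ± 0.24, adjusted p = 0.0405). IRA2, a Ras GTPase-activating protein that holds the branch down, fell there (-0.51 ± 0.24, adjusted p = 0.0428). BCY1, the inhibitory subunit of PKA, gave 1.35, 0.67, 2.66 and 2.24 on arrays 1 to 4, a mean of 1.73 ± 0.89, and did not pass over all genes (adjusted p = 0.0782). Its spots did not meet the duplicate-spot filter. TPK2, the PKA catalytic subunit that activates FLO11 through Flo8, gave 1.00, 0.49, 0.44 and 0.27, a mean of 0.55 ± 0.31 that did not pass (adjusted p = 0.128). TPK3, another catalytic subunit, stood at 0.03 ± 0.26.

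The filamentation MAPK branch, the second input to FLO11, had a median of 0.05 over 12 genes. STE12, its transcription factor, gave 1.64, 0.90, 0.82 and 0.54 on arrays 1 to 4 (mean 0.97 ± 0.47, adjusted p = 0.0826), and the kinase gene STE11 gave -0.69, -1.39, -0.18 and -0.01 (mean -0.57 ± 0.62, adjusted p = 0.238). Neither passed. None of the 9 genes of this branch in the duplicate-spot analysis passed.

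Other activators had a median of 0.61 over 8 genes, the highest of the 4 regulator lists. SNF1, the kinase of glucose derepression, gave 0.59, 0.69, 0.38 and 0.45 on arrays 1 to 4 and rose in the duplicate-spot analysis (mean 0.53 ± 0.14, adjusted p = 0.0294), 1 of 3 activators tested there against 5.31% of all genes. The SWI/SNF remodeller genes SWI1 (0.78 ± 0.34) and SNF5 (0.69 ± 0.42) were above 0 on 4 of 4 arrays. They did not pass over all genes (adjusted p = 0.0839 and 0.120). SNF2, of the same remodeller, was mixed in sign (0.76 ± 0.89, adjusted p = 0.244 in limma, not passed). MGA1, a regulator of filamentous growth of the heat shock factor type, lay far on the other side, at -1.44, -1.73, -2.59 and -0.75 (mean -1.63 ± 0.76, adjusted p = 0.0716, not passed).

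Repressors of flocculin genes had a median of 0.30 over 7 genes. NRG2, a zinc finger repressor of FLO11, gave 1.32, 0.35, 1.05 and 1.42 on arrays 1 to 4 and rose in the duplicate-spot analysis (mean 1.04 ± 0.48, adjusted p = 0.0158). CYC8, a subunit of the Tup1-Cyc8 corepressor that silences flocculin genes, rose there too (0.47 ± 0.17, adjusted p = 0.0425), 2 of 5 repressors tested against 5.31% of all genes. TUP1 itself was mixed in sign (0.17 ± 0.42). HDA1, a histone deacetylase that represses FLO11, stood at 0.98 ± 0.70, with 2.01 on array 4. SOK2 (-0.60 ± 0.64) and MIG1 (-0.54 ± 0.37) were below 0 on 4 of 4 arrays. None of these last 3 passed.

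**Figure D4:**
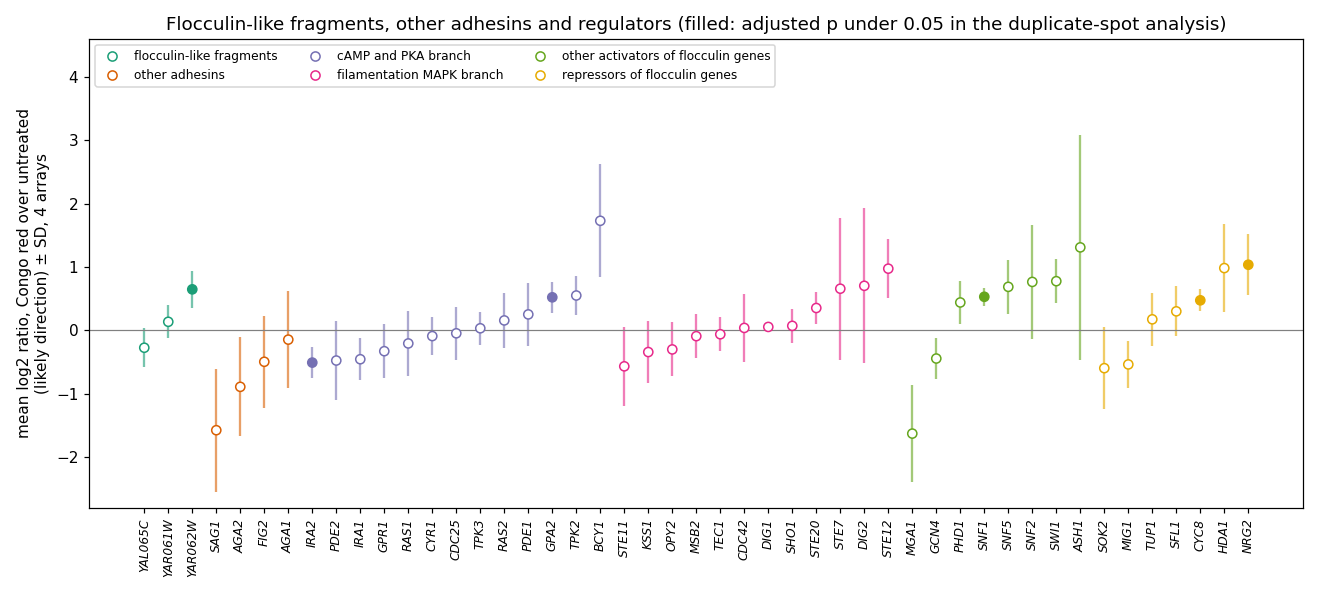
Mean log2 ratio ± SD over 4 arrays (y axis, likely direction) of flocculin-like fragments, mating adhesins and the 4 regulator lists (x axis, 1 gene per point, ordered by mean within a list), filled where the adjusted p was under 0.05 with the duplicate-spot filter. The filled genes are YAR062W, GPA2, SNF1, CYC8 and NRG2 above 0 and IRA2 below.

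Most flocculin genes sit near chromosome ends, where neighbouring genes are often silenced. By the reference table's gene order, 5 annotated genes lie between FLO1 and its chromosome end, 8 beyond FLO9, 13 beyond FLO5, 4 beyond FLO10 and 26 beyond FLO11. The 3 annotated genes on each side of each flocculin gene, 30 in all, included 22 with spots named here and 16 with a value on all arrays. The median of these 16 was 0.13, and none passed in the analysis of all genes. Above 0 on 4 of 4 arrays were 5 of the 16, against 20.4% of all genes, and 1 was below, against 21.3%.

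Around FLO9, the measured neighbours varied in sign from array to array. GDH3, a glutamate dehydrogenase gene next to it, averaged 0.19 ± 0.53, BDH2 -0.05 ± 0.45 and BDH1 -0.29 ± 0.48, and on the end side YAL064W averaged 0.08 ± 0.27 and TDA8 0.27 ± 1.05. Each of these 5 had mixed signs over the arrays, while FLO9 was below 0 on all. Differences between FLO9 and its neighbours were not tested.

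On the end side of FLO1, YAR064W (0.78 ± 0.55) and YAR066W (1.36 ± 0.89) were above 0 on 4 of 4 arrays and rose in the duplicate-spot analysis (adjusted p = 0.0403 and 0.0248, limma), 2 of 10 neighbours tested there against 5.31% of all genes. SWH1, on the other side, averaged 0.53 ± 0.33 and did not pass, and YAT1 averaged 0.11 ± 0.40. Beside FLO10, SIR1, a silencing gene, gave -3.31, -1.06, -1.22 and -2.24 and fell in that analysis (mean -1.96 ± 1.04, adjusted p = 0.0145), 1 of the same 10 neighbours against 11.5% of all genes, where FLO10 was above 0 on its 3 arrays. BAS1 stood at 0.13 ± 0.12, and VBA5 scattered from -3.68 to 1.67. Next to FLO5, BAT1 averaged -0.20 ± 0.50, CRG1 scattered from -2.48 to 3.38, and YHR210C had 3 values, all below -1.

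FLO11 has a long upstream region that gives rise to the noncoding RNAs ICR1 and PWR1, which switch its transcription. Neither RNA had a spot named here. YAP5, a factor of iron tolerance on the other side, gave 2.08, 0.60, 0.32 and 0.49 (mean 0.87 ± 0.81) and did not pass (adjusted p = 0.180), and MET28 had 3 values of mixed sign.

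**Figure D5:**
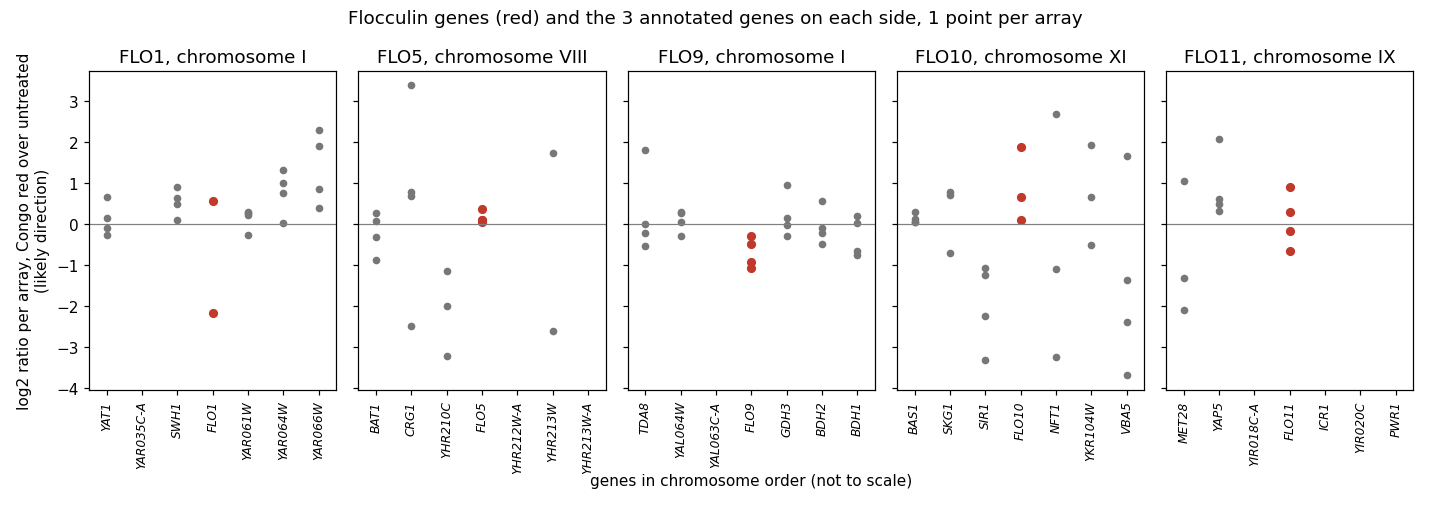
Log2 ratio of Congo red over untreated RNA on each array (y axis, likely direction) of the 5 flocculin genes (red) and the 3 annotated genes on each side (grey), in chromosome order (x axis, not to scale), 1 point per array. FLO9 lies below 0 on all arrays between neighbours of mixed sign, and YAR064W and YAR066W lie above 0 on all arrays beyond FLO1.

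The genes whose values over the 4 arrays were most like each member's were found by Euclidean distance among the 4481 genes. Nearest to FLO9 were MRI1, of methionine salvage (-0.91, -0.62, -1.05 and -0.18, distance 0.183), and POR1, the mitochondrial porin gene (distance 0.305), where the median distance to FLO9 was 1.87. Nearest to FLO5 were VMA6, a subunit of the vacuolar proton pump (distance 0.0451), and ZWF1, glucose-6-phosphate dehydrogenase (distance 0.0900). MSS11 was closest to LYS2, of lysine synthesis (distance 0.0732), and MLH2, of mismatch repair (distance 0.0820). FLO8 was closest to TRM5, a tRNA methyltransferase gene (distance 0.340), and YPL277C (distance 0.374), and FLO11 to YDR248C (distance 0.236) and PFK26, of fructose-2,6-bisphosphate synthesis (distance 0.340). No member was among the nearest genes of another. With 4 arrays of one comparison, short distances are a description of these values.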

How the data were processed

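The 4 arrays form 1 group (treated RNA in channel 2 on arrays 1 and 3 and in channel 1 on arrays 2 and 4, per the labels). Every spot has 1 deposited value, a log2 ratio between channels. Scanning, filtering, normalization, dyes and numerator are unstated in the sources used here. A repeated top value, 16.61 (the log2 of 100000), was taken as a placeholder and set to missing on 31 to 68 spots of an array. The deposited medians were 0.43, -0.25, 0.30 and 0.64, so each array was centred on its median, by a rule of over 0.1 from 0. Arrays of opposite channel order correlated at -0.38 to -0.19 over all spots and arrays of the same order at 0.27 and 0.31, and arrays 2 and 4 were therefore turned. The p-values ignore that this was read from the same values.

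The platform annotation named 11138 spots with 1 gene each and left 1662 unnamed here; 5534 of 5539 genes were matched by gene ID to the R64 gene table and carry its symbols. Spots of a gene were averaged. For genes on all 4 arrays the mean was tested in limma 3.58.1 (R 4.3.3, lmFit, eBayes, no trend) with Benjamini-Hochberg adjustment over all genes, threshold 0.05. The fit was tested on simulated data. Pairs of members were compared by exact sign-flip permutation tests. Alternatives were the turning, the centring (none, or runs of 400 spots), the duplicate-spot filter, genes on at least 3 arrays, a loess length trend removed, robust eBayes, channel order as a coefficient and each array left out. Depth does not apply to arrays, and their number limits the precision.

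Beside the members, the text names list genes with 1 sign on 4 of 4 arrays and a mean over 0.5 in size (at most 4 a list), list genes passing the duplicate-spot analysis, the 2 most alike genes of each member and the 3 genes on each side of each flocculin gene. Genes named outside that rule (AGA1, FIG2, SNF2, TPK3, TUP1, YAL065C, YAR061W, YHR213W and the strain markers) were added after their values were seen. Members, lists and tests were chosen with earlier results of these data known. A planned search of promoter motifs was not run, and no sequences were used here.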

Additional observations from a re-analysis of the deposited data

How the results depend on the processing

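The count of genes passing over all genes was 0 of 4481. It was also 0 (limma) with values unturned, genes on at least 3 arrays, the length trend removed, robust eBayes, channel order as a coefficient and without each array in turn, where 70 to 1422 genes had an unadjusted p under 0.05. It was 93 with arrays not centred (48 higher, 45 lower), 214 with runs of 400 spots centred (54 higher, 160 lower) and 472 in the duplicate-spot analysis (149 higher, 323 lower). The cause was not tested. Of 127 recomputed values of 12 results, 112 kept their direction and side of the threshold or, where no test was made, stayed within the spread between arrays. Some of the 112 could not move, such as member differences with arrays not centred and FLO1 without array 1 or 3, where it had no value. FLO1 turned to 0.80 also counts among them, by its wide spread. The count is therefore no measure of robustness. FLO9 passed in the duplicate-spot analysis (-0.69, adjusted p = 0.0296) and, in an alternative chosen after seeing the data, with the length trend also removed (-0.78, adjusted p = 0.0419, limma). Its adjusted p under the other alternatives lay between 0.0665 (runs centred) and 0.999 (unturned). The FLO8 spots 7705 and 7706 passed with the duplicate-spot filter (0.52, adjusted p = 0.0288, limma), also chosen after seeing the data. Runs of 400 spots centred turned FLO5 to -0.0267 and FLO11 to -0.0311. Values left unturned turned FLO8 to -0.0927, MSS11 to -0.0104, FLO8 minus MSS11 to -0.0823, FLO10 to -0.81 and FLO1 to 0.80. They left FLO9 at -0.31, FLO5 at 0.05, FLO11 at 0.03, FLO5 minus FLO9 at 0.36 and FLO9 minus FLO11 at -0.34. Leaving out an array gave FLO11 a range of -0.17 to 0.34, FLO5 minus FLO11 of -0.26 to 0.36 (-0.26 without array 1 and -0.01 without array 4), FLO9 of -0.82 to -0.56, FLO8 of 0.57 to 1.11, FLO10 of 0.38 to 1.27, MSS11 of 0.19 to 0.34 and FLO5 of 0.08 to 0.19. FLO1 rests on 1 array without array 2 (-2.17) or array 4 (0.56). No paired analysis was possible because all 4 arrays form 1 group and each array already sets treated against untreated RNA. Spot brightness and signal over background were not analysed here.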
